A study of Mus musculus with 20 samples.

Results

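The response of islet transcripts to pregnancy was compared between the pancreas and a graft under the kidney capsule, on 20 of the 20 arrays of the series. Islets from the pancreas of female C57bl6/J mice came from non-pregnant animals (NP, n = 4) or from animals 12.5 days pregnant (P12.5, n = 4). C57bl6/J donor islets, female or male, were transplanted beneath the capsule of the kidney in female hosts that streptozotocin, a beta cell toxin, had made diabetic. Grafts were recovered from NP hosts (n = 3 of each donor sex) and P12.5 hosts (n = 3 of each donor sex), and only hosts whose glucose had normalised were mated. No streptozotocin was described for the mice whose islets stayed in place, and their arrays are labelled as reanalysed. A constant offset between the sites, such as one of array batch, cancels in the measure used here. An effect of batch, streptozotocin or surgery on the response itself cannot be told apart from an effect of site.

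The measure was the interaction of site with pregnancy, that is, the P12.5 minus NP change in grafts (the mean over both donor origins) minus the P12.5 minus NP change in non-transplanted islets. All values are log2 intensities or differences of them, so that 1 unit is a doubling. A positive interaction means that pregnancy moved the gene further up, or less far down, in grafts. A gene was called when limma's adjusted p was under 0.05 and the change was at least 1.5-fold, which is 0.585 on the log2 scale. Each of 19938 genes was represented by its brightest probe set with a single gene symbol. The samples are named as biological replicates without animal identities, so the tests measure the spread between these samples. In such bulk RNA, fewer cells of a type and less RNA per cell cannot be told apart.

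In pregnancy, placental lactogens and prolactin act on beta cells through the prolactin receptor, which signals by way of the kinase JAK2 and the transcription factor STAT5. Beta cells then divide, make serotonin and secrete more insulin. A graft under the kidney capsule sees the same circulating hormones, but has lost its pancreatic nerve and blood supply and regrows vessels from the host.

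Array medians lay between 5.9 and 6.0, and replicates of a group correlated across probe sets at r = 0.971 to 0.989. The islet hormone transcripts were near the top of the scale at both sites, with Ins2 (insulin) at 10.2 to 11 in islets and 10.8 to 11 in grafts, and Gcg (glucagon) at 12.8 to 13.8 and 13.3 to 13.7. NP islet array 1 gave the lowest value of both hormones. The mean level of 29 acinar cell genes was 6.99 to 8.69 in islets and 4.96 to 5.22 in grafts. The mean of 27 kidney proximal tubule genes was 5.3 to 5.43 in islets and 5.76 to 8.28 in grafts, and in female grafts it was lower at P12.5 (5.76 to 7.07) than in NP hosts (7.83 to 8.28).

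Part of the pregnancy response was called at both sites. In non-transplanted islets 159 genes rose and 10 fell (0.797% and 0.0502% of genes), and in grafts 166 rose and 304 fell (0.833% and 1.52%), in all 169 genes (0.848%) and 470 genes (2.36%). Of these, 58 genes rose and 6 fell at both sites (0.291% and 0.0301%). The shared genes were 37.9% of those called in islets, 34.9% of those that rose in grafts and 1.97% of those that fell in grafts. Over all 169 genes called in islets the graft change had the same sign for 166, and its median ratio to the islet change was 0.648. The 159 that rose had a median change of 0.825 in islets and 0.50 in grafts. Conversely, the 166 genes that rose in grafts had a median change of 0.75 in grafts and 0.35 in islets. A call at 1 site favours genes with large changes at that site, so neither comparison shows a weaker response at the other. The NP and P12.5 arrays did not overlap at either site for 52 of the 64 shared genes and for 0.762% of all genes (7.02% for islets taken alone and 4.04% for grafts), and nothing is read from this count since the same arrays chose the 64. Among the 64, which had to pass in grafts as well, the graft change was smaller than the islet change for 40 and larger for 23, and the median ratio of graft to islet change was 0.892 (0.493 to 1.33). The 95% interval of the interaction lay wholly within 1.5-fold of equality for 36 of the 64 genes and excluded 0 for 12, of which 11 changed less in grafts. With the correction over all probe sets, 1 of the 64, Matn2, was called in the interaction.

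**Figure D1:**
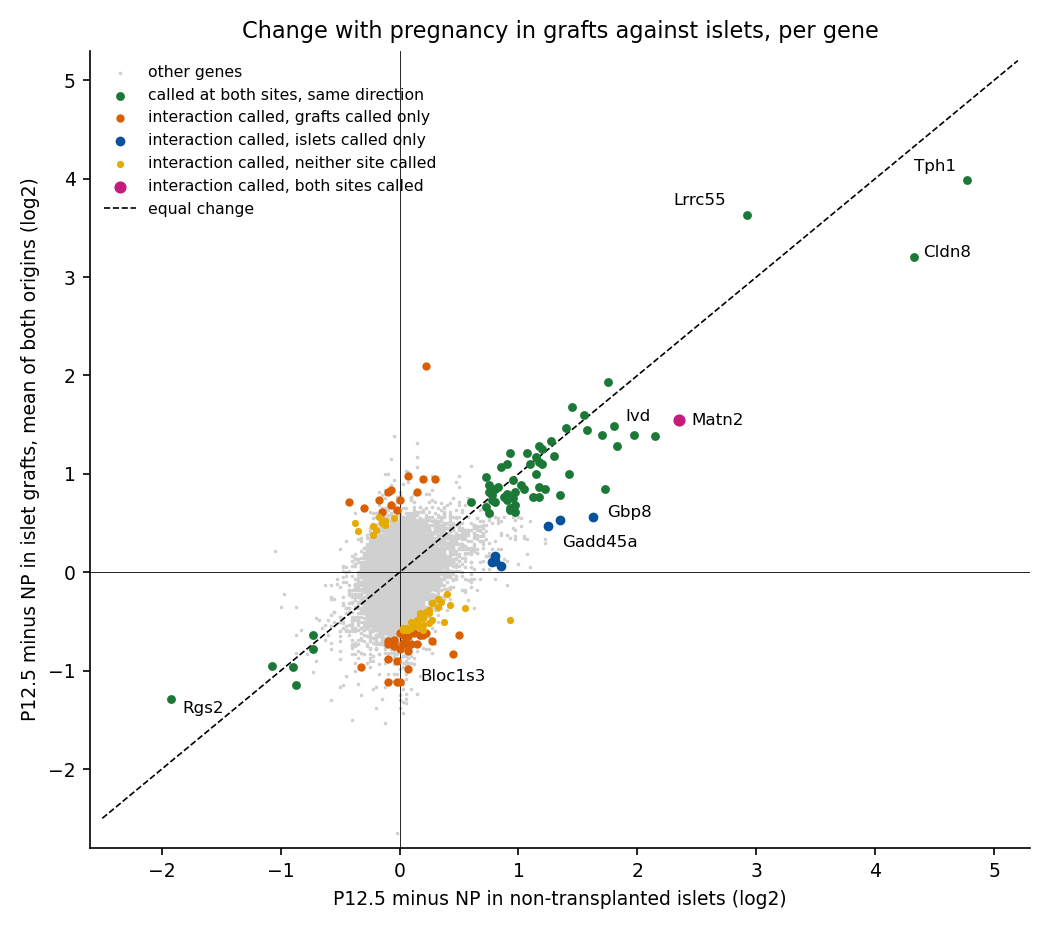
Change with pregnancy (P12.5 minus NP, log2) per gene in non-transplanted islets (x axis) against islet grafts (y axis), with the dashed line marking equal changes. The 64 genes called at both sites lie along the line, the 7 genes called in the interaction and in islets only lie below it on the right, and the 50 called in the interaction and in grafts only lie near an islet change of 0.

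Tph1, the enzyme that starts serotonin synthesis, changed most at both sites. In NP islets it stood at 4.7, 4.7, 4.8 and 5.2 and in P12.5 islets at 9.4, 9.6, 10.3 and 9.2. In grafts it went from 4.7, 4.4 and 4.6 to 9.0, 8.4 and 9.5 with female donors, and from 4.8, 4.4 and 4.6 to 8.2, 8.0 and 8.3 with male donors. The NP levels of islets and grafts overlapped, no NP array came near a P12.5 array, and the male P12.5 grafts were the lowest of the pregnant samples. The rise was 4.78 ± 0.22 (SE; 27.4-fold) in islets and 3.98 ± 0.18 (15.8-fold) in grafts. The interaction of -0.79 (95% interval -1.4 to -0.19) was not called (adjusted p = 0.165).

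Cldn8, a tight junction claudin, read 4.9, 5.2, 4.8 and 5.1 in NP islets and 9.0, 9.5, 9.6 and 9.2 in P12.5 islets. Grafts went from 6.1, 5.8 and 6.2 to 9.5, 9.1 and 8.6 (female) and from 4.7, 5.4 and 6.0 to 8.7, 8.9 and 8.6 (male). NP grafts reached above NP islets, P12.5 grafts lay level with P12.5 islets or below them, and no NP array came near a P12.5 array. Its interaction was -1.13 (-1.74 to -0.51, adjusted p = 0.0697), a rise of 20-fold in islets and 9.19-fold in grafts. The interaction was called without male NP graft array 1 (-1.29, adjusted p = 0.016), with array weights per site (-1.12, adjusted p = 0.0439) and with the mean level of a lymphocyte marker list, described further on, as a covariate (-1.77, adjusted p = 0.0126).

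Lrrc55, an auxiliary subunit of BK potassium channels, went the other way. It stood at 5.5, 5.6, 5.5 and 5.5 in NP islets and 8.2, 8.6, 8.5 and 8.5 in P12.5 islets. Female grafts moved from 5.4, 5.1 and 5.2 to 9.2, 9.2 and 8.7 and male grafts from 5.6, 5.2 and 4.9 to 8.7, 9.0 and 8.4. Graft P12.5 levels overlapped those of islets only at their lower end, and the rise was 12.4-fold against 7.59-fold. The interaction of 0.71 (0.29 to 1.13) had an adjusted p of 0.0881, and it was called without male NP graft array 1 (0.80, adjusted p = 0.0315) and with the lymphocyte list as a covariate (0.94, adjusted p = 0.0489).

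For several strongly raised genes the changes at both sites lay close together. Chgb, the granule protein chromogranin B, went from 10.3 to 10.5 in NP islets to 11.5 to 11.7 at P12.5, and from 10.3 to 10.7 in NP grafts to 11.3 to 11.6 at P12.5. Its changes were 1.18 ± 0.092 and 1.12 ± 0.075, and the interval of the interaction, -0.31 to 0.19, bounds any difference between the sites. Dhcr7, which makes cholesterol from its immediate precursor, rose by 1.15 and 1.17 (interval of the interaction -0.35 to 0.38). Edem1, which takes part in the disposal of misfolded proteins in the endoplasmic reticulum (ER), rose by 0.78 at both sites (-0.28 to 0.30).

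Prok1 (prokineticin 1) rose by 1.45 in islets and 1.68 in grafts, with an interaction of 0.23 (-0.12 to 0.59). Kirrel3os, a transcript antisense to Kirrel3, rose by 1.40 and 1.47, and Sftpd, the lectin surfactant protein D, by 1.58 and 1.45. Their intervals of -0.24 to 0.37 and -0.52 to 0.27 again lay within 1.5-fold of equality. All 3 had separate NP and P12.5 arrays at both sites.

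**Figure D2:**
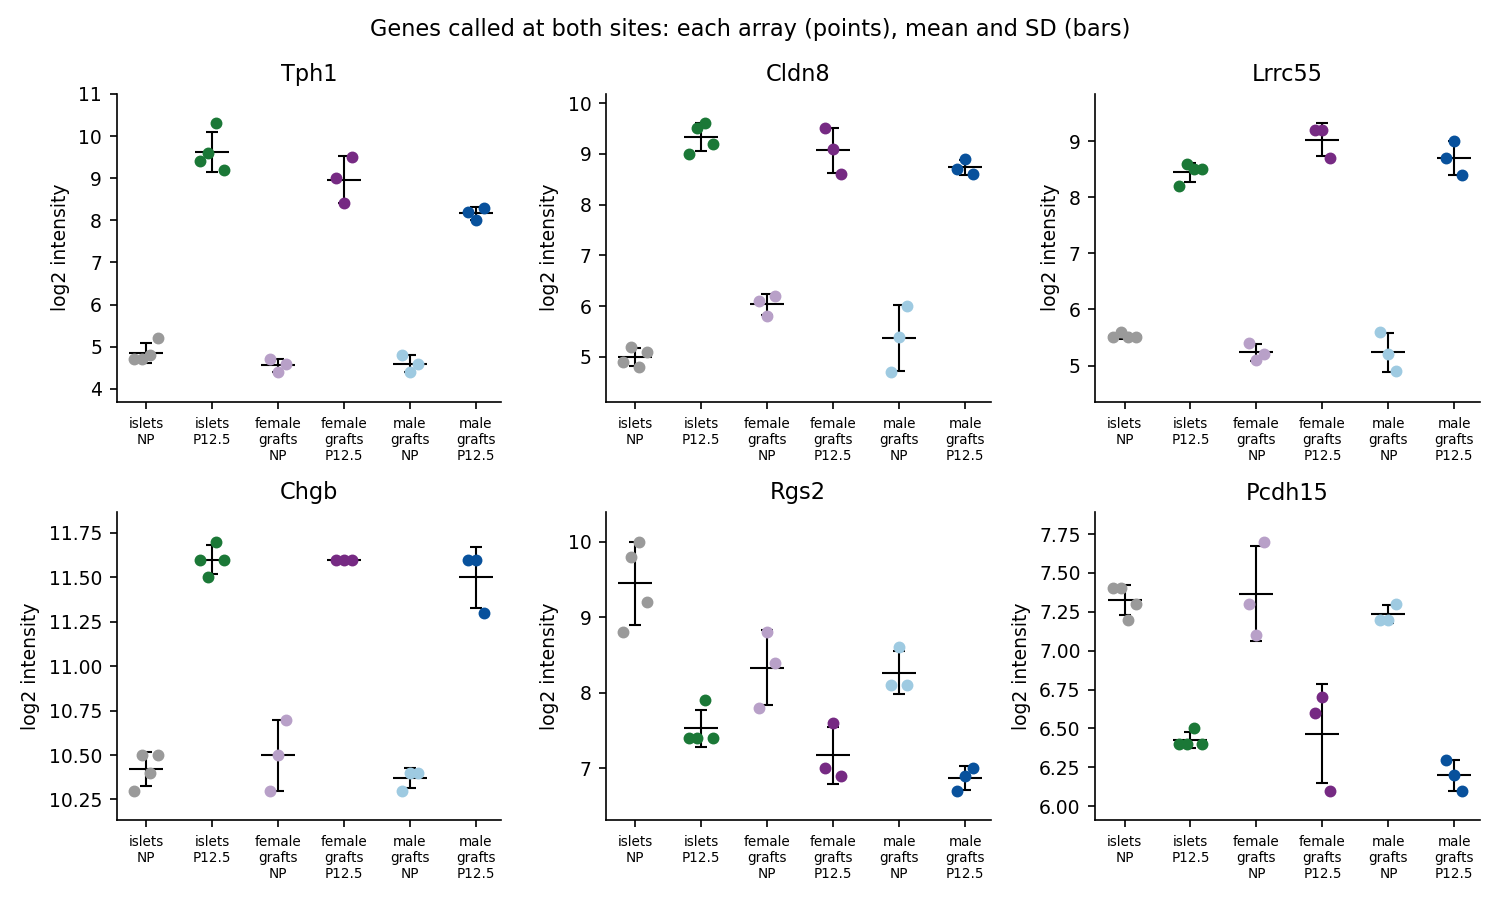
Log2 intensity (y axis) of 6 genes called at both sites in the 6 groups (x axis), with a point per array and bars for the mean and SD (n = 4 for islets, n = 3 for grafts). NP and P12.5 points are apart at both sites for all 6 genes, and Tph1 reaches 9.2 to 10.3 in P12.5 islets and 8.0 to 9.5 in P12.5 grafts.

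The 6 genes that fell at both sites included Rgs2, an inhibitor of G protein signalling. It stood at 8.8, 9.8, 10 and 9.2 in NP islets and 7.4, 7.4, 7.9 and 7.4 in P12.5 islets. In grafts it fell from 7.8, 8.8 and 8.4 to 7.0, 7.6 and 6.9 (female) and from 8.1, 8.6 and 8.1 to 6.7, 6.9 and 7.0 (male). Islets began higher and the groups stayed apart at both sites, with changes of -1.93 ± 0.25 and -1.28 ± 0.21 and an interaction of 0.64 (-0.040 to 1.32) that was not called.

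Pcdh15, a cadherin, fell by 0.90 and 0.97 (interaction -0.067, interval -0.41 to 0.28). Mdm1 fell by 1.08 in islets and by 0.95 in grafts, and the imprinted zinc finger gene Zim1 by 0.88 and 1.15. Btg1, which restrains proliferation, fell by 0.73 and 0.78. Abca1, the cholesterol efflux pump, fell by 0.73 and 0.63. None of these was called in the interaction (adjusted p of 0.305 to 0.898 for the 6 genes), and NP and P12.5 arrays were apart at both sites for all 6.

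The islet pregnancy gene signature, 12 genes that the study chose for their induction in islets, was measured in full. All 12 were called up in islets and 11 in grafts. The exception, Gbp8, had a graft change of 0.57 (adjusted p = 0.00094) just under the fold minimum, and was called in female grafts taken alone (0.93, adjusted p = 0.00114). The choice favours genes with large islet changes, so the smaller graft values below are not independent evidence. The median change was 1.78 in islets and 1.44 in grafts, and the interaction was negative for 10 of 12 with a median of -0.67, beside 0 over all genes. Matn2 and Gbp8 were called in the interaction (0.522% of genes were called in either direction).

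Among the remaining signature genes, Car8, a carbonic anhydrase-related protein, had an interaction of 0.050 (-0.38 to 0.48) and Neb, the giant muscle protein nebulin, 0.18 (-0.28 to 0.65). Tnfrsf11b (osteoprotegerin) had -0.32 (-0.68 to 0.047), Lonrf3 -0.30 (-0.99 to 0.39) and Cish, a STAT5 target that damps the receptor's signal, -0.43 (-1.09 to 0.24). The intervals of Ivd, the leucine breakdown enzyme isovaleryl-CoA dehydrogenase (-0.92 to -0.23), Tph2 (-1.29 to -0.24) and Ehhadh, a peroxisomal enzyme of fatty acid oxidation (-1.5 to -0.25), excluded 0. Their adjusted p-values of 0.0894, 0.133 and 0.142 missed the threshold. Ivd and Ehhadh passed it without male NP graft array 1 (adjusted p of 0.0264 and 0.0455).

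STAT5 binds the palindrome TTCNNNGAA, which reads the same on both strands. The 250 bases before the start site were searched in RefSeq promoters of GRCm38.p6, in which 50 of the 64 shared genes, 76 of the 104 genes called in the interaction and 15614 of the 19938 genes measured had an entry. The motif stood before 6 of the 50 shared genes (12%), 4 of the 76 genes of the interaction (5.26%) and 1204 of the 15614 genes (7.71%). These counts are a description and were not tested. The 3 genes with a match among those named by rule are shown, Prok1 and Ivd as genes raised at both sites and Ptpn22 as a gene lowered in grafts only, with the motif in capitals. The windows are chr3:107238653-107238902 on the minus strand, chr2:118861744-118861993 on the plus strand and chr3:103860027-103860276 on the plus strand.
Prok1: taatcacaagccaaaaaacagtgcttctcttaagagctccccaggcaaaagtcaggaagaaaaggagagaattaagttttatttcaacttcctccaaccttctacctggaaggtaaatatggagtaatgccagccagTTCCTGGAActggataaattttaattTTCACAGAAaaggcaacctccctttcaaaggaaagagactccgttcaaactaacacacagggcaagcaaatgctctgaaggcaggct
Ivd: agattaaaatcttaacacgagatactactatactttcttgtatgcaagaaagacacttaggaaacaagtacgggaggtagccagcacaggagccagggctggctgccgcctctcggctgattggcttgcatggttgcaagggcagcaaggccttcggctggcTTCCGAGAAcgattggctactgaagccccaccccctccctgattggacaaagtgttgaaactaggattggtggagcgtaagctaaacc
Ptpn22: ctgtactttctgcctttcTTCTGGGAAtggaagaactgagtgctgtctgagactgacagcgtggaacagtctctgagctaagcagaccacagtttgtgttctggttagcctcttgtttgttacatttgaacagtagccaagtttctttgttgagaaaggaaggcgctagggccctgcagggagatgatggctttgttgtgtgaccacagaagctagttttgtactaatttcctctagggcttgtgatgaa

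The Prok1 window holds 2 matches, which begin 113 and 87 bases before the start, while those of Ivd and Ptpn22 begin 88 and 232 bases before it. Cish, a known STAT5 target, has an entry but no match in these 250 bases, which says only that these letters are not in this window. The study describes several such sites in the Cish promoter. It also reports a STAT5 site for each of the other signature genes that it searched, and gives no length for the regions searched.

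The response differed between the sites for 104 genes (0.522%), of which 26 had a positive and 78 a negative interaction (0.13% and 0.391%). Of the 104, 50 were called in grafts and not in islets, 7 in islets and not in grafts, 1 at both sites and 46 at neither site. No gene was called up at one site and down at the other. A further 98 genes called in islets and 356 called in grafts had no call at the other site and none in the interaction, so that for them a difference between the sites was not shown.

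This count rested on single arrays more than the shared count did. Leaving out 1 array in turn gave 58 to 79 shared genes, and 54 of the 64 stayed called in each of the 20 removals. The interaction gave 33, 21 and 32 genes without P12.5 islet array 1, 2 or 3. It gave 60, 37, 57 and 28 without NP islet array 1, 2, 3 or 4, 64 without female P12.5 graft array 1 and 60 without female NP graft array 2. It gave 160 without male P12.5 graft array 1, and 306 and 53 without male NP graft arrays 1 and 2. Of 32 genes called in the interaction and named below, 6 stayed called in every removal (Bloc1s3, Gbp8, Anp32e, Stat4, Cmtm6 and Acer1), and none changed sign. The calls of Car5b and Acad8 held in 4 removals, and those of D17H6S56E-5 and Ptpn22 in 5. Those of Atoh8 and Il13ra1 held in 6, and those of Plb1, Tex30 and Crocc2 in 7.

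Matn2, the extracellular matrix protein matrilin 2, was the 1 gene called at both sites and in the interaction. NP islets read 7.3, 7.3, 7.2 and 7.7 and P12.5 islets 9.6, 9.7, 9.9 and 9.7. Female grafts went from 8.2, 8.5 and 8.3 to 9.9, 9.9 and 9.8 and male grafts from 8.5, 8.2 and 7.9 to 9.7, 9.8 and 9.8. The P12.5 levels of both sites coincided, and the NP grafts lay above all NP islets. The rise was 5.1-fold in islets and 2.93-fold in grafts, an interaction of -0.80 ± 0.16 (adjusted p = 0.028), and it was called in 15 of 20 removals. With the lymphocyte list as a covariate it was not called (-0.56, adjusted p = 0.0961).

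Gbp8, a guanylate-binding protein of the interferon-induced family, also began higher in grafts. It stood at 5.7, 5.4, 5.3 and 5.2 in NP islets and 6.8, 7.1, 7.1 and 7.1 in P12.5 islets. In female grafts it went from 7.0, 7.0 and 6.8 to 7.9, 7.8 and 7.9, and in male grafts from 7.8, 7.7 and 7.3 to 7.8, 7.9 and 7.7. Islet groups and female graft groups were apart, whereas the male graft groups overlapped. The interaction was -1.06 ± 0.15 (-1.38 to -0.73, adjusted p = 0.00836), with -0.69 against female and -1.43 against male grafts.

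Another 6 genes with an interaction call rose in islets and were not called in grafts. Cmtm6, a membrane protein that stabilises PD-L1, read 8.5, 8.6, 8.6 and 8.5 in NP islets and 9.4, 9.5, 9.5 and 9.2 in P12.5 islets. Grafts read 9.0 to 9.3 in NP hosts and 8.9 to 9.4 in P12.5 hosts, above all NP islets in both states and overlapping the P12.5 islets. The interaction was -0.78 ± 0.13 (adjusted p = 0.0159).

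Gadd45a, a p53-inducible growth arrest and stress gene, rose from 7.2, 7.0, 7.2 and 7.0 to 8.4, 8.3, 8.5 and 8.6 in islets. It read 7.5 to 7.8 in NP grafts and 7.9 to 8.7 in P12.5 grafts. NP and P12.5 were apart at both sites, but the graft change of 0.53 fell short of the fold minimum, and the interaction was -0.82 ± 0.15 (adjusted p = 0.0217). Il13ra1, a receptor chain for interleukins 4 and 13, changed by 0.78 in islets and 0.10 in grafts. The locus D17H6S56E-5 changed by 1.25 and 0.47.

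Mcm3, a subunit of the replicative helicase, went from 5.7, 5.9, 5.7 and 5.8 to 6.9, 6.5, 6.5 and 6.4 in islets. In female grafts it went from 6.2, 6.2 and 6.1 to 6.4, 6.6 and 6.6, and in male grafts from 6.6, 6.3 and 6.4 to 6.3, 6.5 and 6.4. Islet and female graft groups were apart and male graft groups overlapped. The interaction was -0.63 ± 0.13 (adjusted p = 0.0341), called in 11 of 20 removals and not with the lymphocyte list as a covariate (-0.55, adjusted p = 0.0785). Arhgap11a, a gene known from dividing cells, changed by 0.80 in islets and 0.12 in grafts (interaction -0.68, adjusted p = 0.0323).

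**Figure D3:**
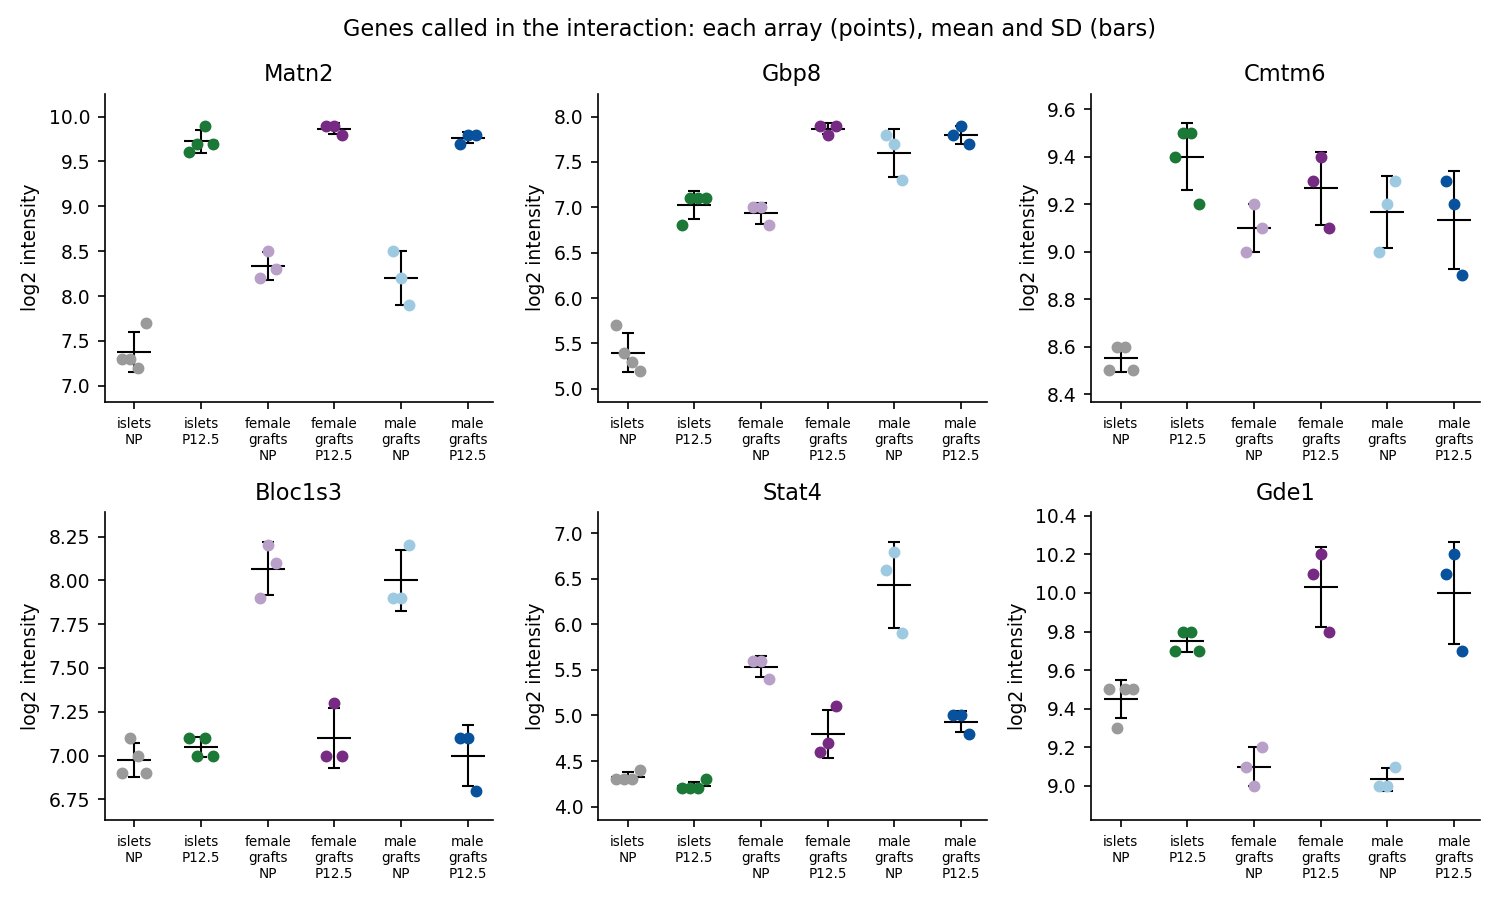
Log2 intensity (y axis) of 6 genes called in the interaction in the 6 groups (x axis), with a point per array and bars for the mean and SD (n = 4 for islets, n = 3 for grafts). Matn2, Gbp8 and Cmtm6 differ more between NP and P12.5 in islets, and Bloc1s3, Stat4 and Gde1 in grafts.

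Of the 50 genes called in grafts only, 36 fell. Bloc1s3, a subunit of the BLOC-1 complex of lysosome-related organelles, had the smallest adjusted p of the named genes. It stood at 6.9, 7.1, 7.0 and 6.9 in NP islets and 7.1, 7.0, 7.1 and 7.0 in P12.5 islets. It fell from 7.9, 8.2 and 8.1 to 7.0, 7.3 and 7.0 in female grafts and from 7.9, 7.9 and 8.2 to 7.1, 7.1 and 6.8 in male grafts. The NP grafts stood above all other arrays, and P12.5 grafts lay at the islet level. The interaction was -1.06 ± 0.13 (adjusted p = 0.00321), called under every removal.

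Anp32e, a histone chaperone that removes H2A.Z, had an islet change of 0 (7.4 to 7.6 in NP and 7.3 to 7.8 in P12.5 islets). It fell from 7.7, 8.3 and 8.3 to 7.3, 7.2 and 7.2 in female grafts and from 8.3, 8.3 and 8.5 to 7.2, 7.1 and 6.7 in male grafts. NP and P12.5 grafts did not overlap, and the interaction was -1.12 ± 0.18 (adjusted p = 0.0138). Kmo, the kynurenine monooxygenase of tryptophan breakdown, was at 3.8 to 4.2 in all islets and fell from 6.0 to 6.7 in NP grafts to 4.8 to 5.5 in P12.5 grafts. Its interaction of -1.09 ± 0.20 (adjusted p = 0.0213) rested on a transcript that read near the bottom of the scale in islets.

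Id2, an inhibitor of basic helix-loop-helix factors, read 5.7 to 6.0 in NP islets and 6.0 to 6.2 in P12.5 islets. It was higher in grafts, and went from 8.5, 8.4 and 8.2 to 7.6, 7.3 and 8.2 with female donors and from 8.4, 8.3 and 8.7 to 7.7, 7.5 and 8.0 with male donors. A P12.5 graft of a female donor reached the lowest NP graft, and the interaction was -0.98 ± 0.20 (adjusted p = 0.0318). With the kidney proximal tubule list as a covariate it was not called (-0.89, adjusted p = 0.0662). Mfsd1, a lysosomal transporter, changed by 0.15 in islets and fell by 0.73 in grafts, where the groups were apart (interaction -0.88 ± 0.16, adjusted p = 0.0213).

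Stat4, a transcription factor of T and natural killer cells, was at 4.2 to 4.4 in all islets. It fell from 5.6, 5.6 and 5.4 to 4.6, 4.7 and 5.1 in female grafts and from 6.6, 6.8 and 5.9 to 5.0, 5.0 and 4.8 in male grafts. All NP grafts lay above all P12.5 grafts, the male NP grafts highest, and the interaction was -1.02 ± 0.19 (adjusted p = 0.0213). Ptpn22, a phosphatase of lymphocyte receptor signalling, read 4.2 to 4.4 in islets. It went from 5.7, 5.7 and 6.1 to 4.9, 5.4 and 5.7 in female grafts and from 6.9, 6.6 and 6.2 to 5.3, 5.2 and 5.3 in male grafts. Its groups overlapped in female grafts, and its interaction was -0.88 (adjusted p = 0.0472).

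Cytip, a cytohesin-binding protein of leukocytes, had the interaction -1.13 ± 0.22 (adjusted p = 0.0249), made of -0.60 against female and -1.67 against male grafts. Cd69, Btla, Cxcr5, Klrb1b and P2ry10, chosen here after their values were seen because lymphocytes are known to express them, had interactions of -0.78, -0.81, -0.66, -0.74 and -0.78.

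The lymphocyte marker list fell in male grafts (median change -0.63) and changed little in female grafts (-0.05), where Stat4 fell as well. Of its 24 measured members, 22 were lower at P12.5 than NP in grafts, as were 9011 of all 19938 genes. Called down in grafts were 7 of the 24, beside 1.52% of all genes. The median change was -0.35, beside 0.017 over all genes. Taken alone, male grafts had 13 of the 24 called down and female grafts 0, beside 349 and 342 of all genes. The mean level of the list was 5.09 to 5.26 in islets, 5.49 to 5.60 in female NP grafts and 5.34 to 5.58 in female P12.5 grafts. It was 5.83 to 6.39 in male NP grafts and 5.39 to 5.51 in male P12.5 grafts. All grafts thus lay above all islets, and among the grafts only the male NP group stood apart. None of the 24 was itself called in the interaction (median -0.31), and Ms4a1 (CD20), at 5.7, 6.2 and 6.0 in male NP grafts and 4.1 to 4.8 in all other grafts, came nearest (adjusted p = 0.0508). With the list mean as a covariate, Stat4, Ptpn22 and Cytip had -0.46, -0.43 and -0.76 and were not called. Bloc1s3, Anp32e, Kmo, Id2 and Mfsd1 had -1.24, -1.32, -1.04, -1.07 and -1.08 and were called. This covariate was chosen with earlier results known, and with it 592 genes were called in the interaction in place of 104. Since the list mean sets grafts apart from islets and male NP grafts from other grafts, these calls cannot tell lymphocyte RNA from other features of those groups. The part of lymphocyte RNA in these results was not tested.

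**Figure D4:**
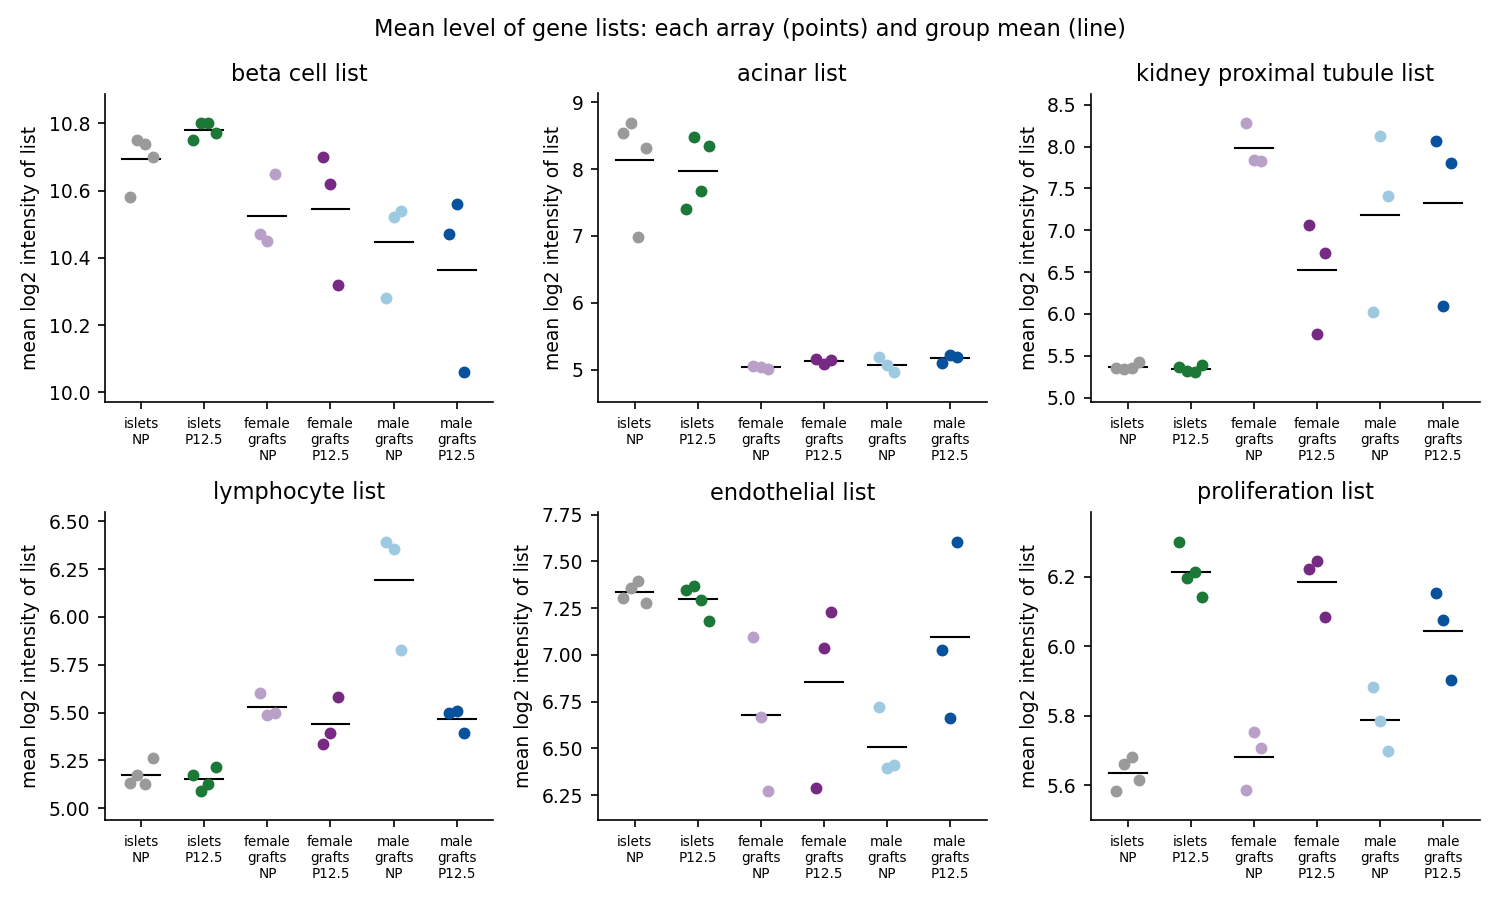
Mean log2 intensity (y axis) of 6 gene lists in the 6 groups (x axis), with a point per array and a line at the group mean. The lymphocyte list is high in male NP grafts, the kidney proximal tubule list varies among grafts, and the proliferation list is higher at P12.5 than in NP samples at both sites.

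Genes at neither site past their own threshold made up 46 of the 104. Car5b, a mitochondrial carbonic anhydrase, had the lowest interaction of the named genes, at -1.41 ± 0.32 (adjusted p = 0.0441). It went from 4.6, 4.9, 4.6 and 4.6 to 5.7, 5.5, 5.7 and 5.5 in islets, a change of 0.93 that was not called. It went from 6.9, 7.0 and 7.0 to 6.4, 6.2 and 6.1 in female grafts and from 6.2, 7.1 and 6.5 to 6.7, 5.4 and 7.0 in male grafts. The male grafts overlapped widely, and the call was kept in 4 of 20 removals and lost once values below the lower quartile of 4.8 were raised to it (-1.26, adjusted p = 0.0831). Tex30 had an interaction of -0.92 (adjusted p = 0.0363) and Ifrd1, a transcriptional regulator, of -0.88 in grafts of either origin (adjusted p = 0.0311), each with changes of opposite sign at the sites, neither of them called.

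Positive interactions of the named genes were smaller. The highest of all 104 was that of n-R5s136, a multi-copy 5S ribosomal RNA locus that the naming rule passed over (1.88 ± 0.42, adjusted p = 0.0419). Of the 14 genes called in grafts only with a positive value, Gde1, a glycerophosphodiester phosphodiesterase, read 9.5, 9.3, 9.5 and 9.5 in NP and 9.7, 9.8, 9.8 and 9.7 in P12.5 islets. It rose from 9.1, 9.0 and 9.2 to 10.1, 10.2 and 9.8 in female grafts and from 9.0, 9.0 and 9.1 to 10.1, 10.2 and 9.7 in male grafts. Groups were apart at both sites, and the NP grafts lay below the NP islets. The interaction was 0.65 ± 0.14 (adjusted p = 0.0338). It was called in 10 of 20 removals, and not with the kidney or lymphocyte list as a covariate or with either graft origin alone.

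Ppp1r14b, an inhibitor of protein phosphatase 1, rose by 0.82 in grafts and 0.15 in islets (interaction 0.67, adjusted p = 0.0249). Acer1, an alkaline ceramidase, read 5.1 to 5.3 in all islets and went from 4.3 to 4.7 in NP grafts to 5.1 to 5.4 in P12.5 grafts (interaction 0.66 ± 0.12, adjusted p = 0.0185). Plb1 (phospholipase B1) and Ifnl2 (interferon lambda 2) had interactions of 0.76 and 0.77. Plb1 lay below all islets in NP grafts (6.8 to 7.0 against 7.5 to 8.1). Ifnl2 read 8.0 to 8.2 in NP grafts, 8.5 to 8.9 in P12.5 grafts and 8.1 to 8.6 in all islets.

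The other 7 named genes with positive values were called at neither site. Krt86, a hair keratin, had the highest, 0.88 ± 0.19 (adjusted p = 0.0353), with 0.48 against female and 1.28 against male grafts. Prr12, Gja5 (connexin 40, a gap junction protein of arterial endothelium), Atoh8, Krtap21-1, Crocc2 and Gkap1 had interactions of 0.61 to 0.74. Gja5 went from 4.9 to 5.3 in NP grafts to 5.3 to 5.8 in P12.5 grafts and was at 5.2 to 5.5 in all islets.

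**Figure D5:**
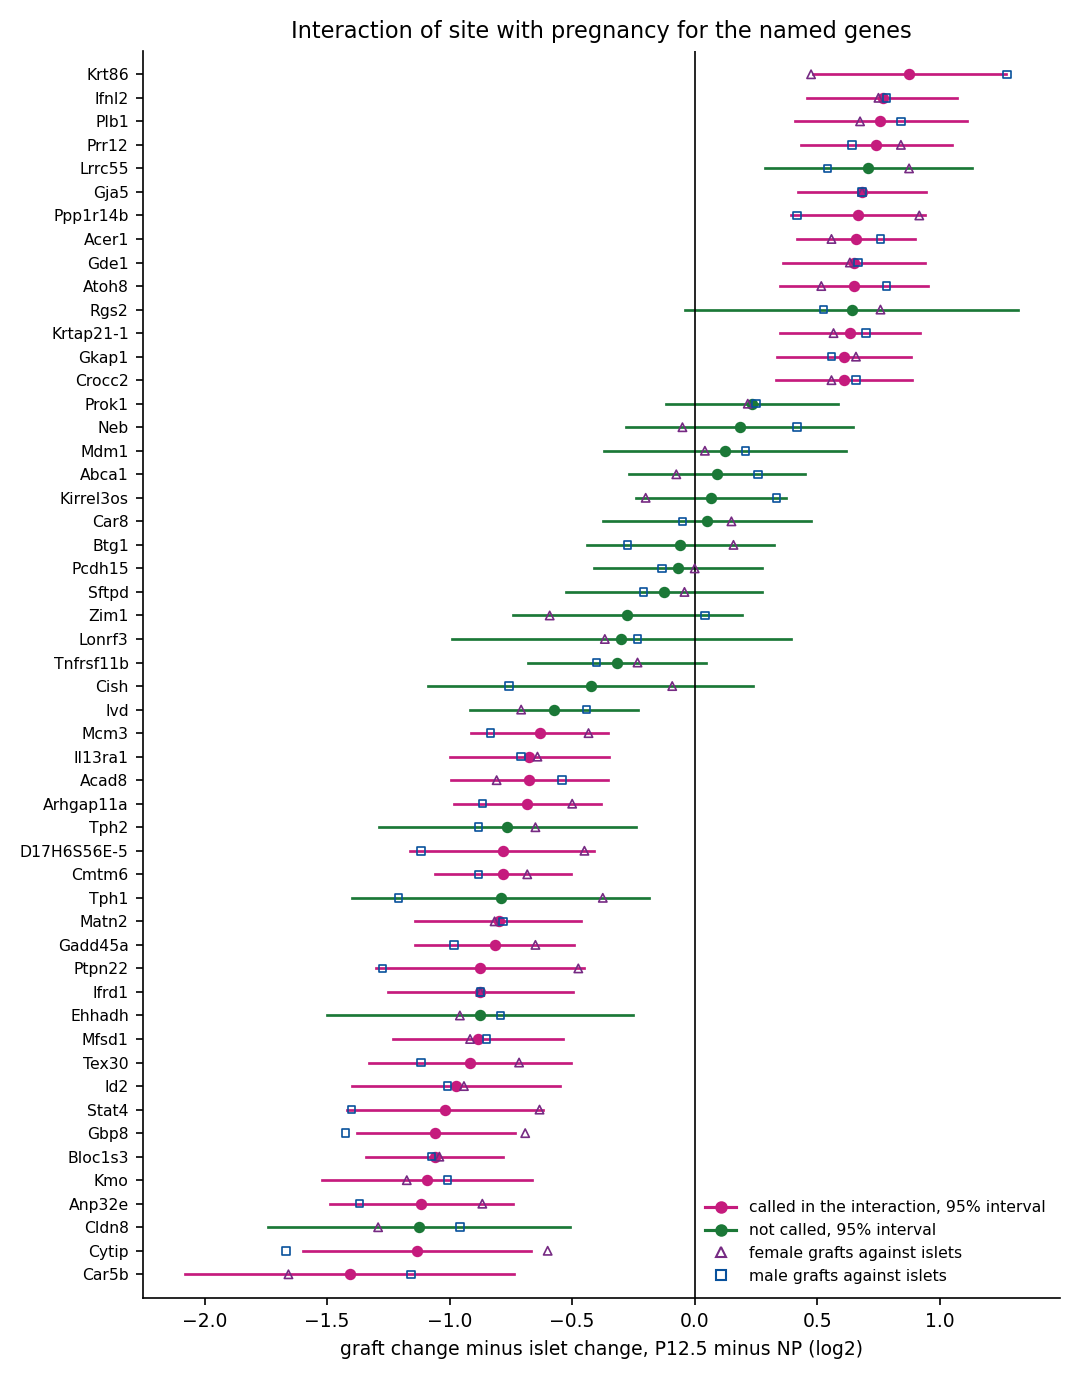
Interaction of site with pregnancy (x axis, log2, graft change minus islet change) for the named genes (y axis), with circles for the estimate, lines for its 95% interval, and open symbols for female and male grafts taken alone. Genes called in the interaction lie from -1.41 (Car5b) to 0.88 (Krt86), and most genes called at both sites have intervals that cross 0.

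Proliferation genes were higher with pregnancy at both sites, and more of them passed the test in islets. Of 55 measured genes, 23 were called up in islets and 5 in grafts, beside 0.797% and 0.833% of all genes. Taken alone, female grafts had 17 called and male grafts 3. All 55 had positive changes at both sites, as did 9157 of 19938 genes in islets and 10365 in grafts. The median change was 0.53 in islets and 0.37 in grafts, and the median interaction was -0.18, with 49 of 55 negative and 1 called (Mcm3). Pbk, a mitotic kinase, rose by 1.20 and 1.25, and Prc1, a spindle midzone protein, by 0.78 and 0.73. Top2a, which untangles DNA before division, rose by 1.35 and 0.78 (interaction -0.57, adjusted p = 0.138). The proliferation antigen gene Mki67 rose by 1.00 in islets and had a graft change of 0.57 that was not called. The median interaction was -0.042 with female grafts alone and -0.29 with male grafts alone, and these values share the islet arrays.

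A minority of ER folding and stress genes was called at each site, though a larger share than over all genes. Of 29 genes, 4 were called up in islets and 5 in grafts (0.797% and 0.833% of all genes), 3 of them at both (Edem1, Edem2 and Derl3, 0.321% of all genes in either direction), and the median interaction was -0.033 with none called. Derl3, a channel subunit of ER-associated degradation, rose by 1.05 and 0.85. Dnajb9, an ER co-chaperone, changed by 0.28 in islets and rose by 0.83 in grafts, with an uncalled interaction of 0.56. Sdf2l1, another ER chaperone component, rose by 0.60 in islets and had a graft change of -0.067 (interaction -0.67, adjusted p = 0.0506).

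Of 15 measured genes of the prolactin receptor pathway, Cish was called at both sites and Socs2, a feedback inhibitor of the pathway, in islets only (1.10 against 0.52, interaction not called). Prlr was not represented under its own symbol. The kinase Jak2 had changes of -0.15 and -0.25. Of 18 serotonin genes Tph1 and Tph2 rose at both sites, and Maob, which breaks down amines, fell in grafts (-0.63). No member of either list was called in the interaction, and the medians were 0.017 and 0.071.

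Mitochondrial lists leaned below 0. The interaction was negative for 16 of 18 genes of branched-chain amino acid breakdown (median -0.39) and for 14 of 18 of fatty acid oxidation (-0.28). It was also negative for 49 of 73 oxidative phosphorylation genes (-0.15, a list added after values were seen) and, outside mitochondria, for 15 of 18 cholesterol synthesis genes (-0.23). Over all genes 9755 of 19938 were negative. Called members were Acad8, isobutyryl-CoA dehydrogenase of valine breakdown, and the respiratory chain subunits Ndufa2 and Cox5b. Acad8 read 7.8 to 8.0 in all islets and went from 8.4, 8.5 and 8.6 to 7.8, 7.9 and 7.6 in female grafts and from 7.8, 8.4 and 8.5 to 7.8, 7.7 and 7.8 in male grafts. Its interaction was -0.68 ± 0.15 (adjusted p = 0.0441) and was kept in 4 of 20 removals. Proximal tubule also expresses many of these genes. Of 27 markers 23 had negative interactions (median -0.68, none called), -1.49 with female grafts alone and -0.017 with male grafts alone. The branched-chain list had -0.35 with either origin, and fatty acid oxidation -0.30 with female and -0.21 with male grafts. Among male grafts the mean of the kidney list spread widely, from 6.02 to 8.13 in NP and from 6.10 to 8.06 in P12.5 hosts. With that list's mean as a covariate 48 genes were called in the interaction, and Acad8 was not (-0.60, adjusted p = 0.0872). The part of kidney RNA was not otherwise tested.

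Beta cell identity genes had a median interaction of -0.19, with 16 of 20 negative and none called. This lean depended on scaling, since the median was -0.034 once the arrays' distributions were equalised again (renewed quantile normalization). The brightest value of NP islet array 1 lay below that of every other array, and many of these genes are bright. The part of that array in this median was not tested. Pcsk1, the prohormone convertase, rose in islets (0.63, against 0.35 in grafts), and Slc30a8, the granule zinc transporter, fell in grafts (-0.65, against -0.28). Npy, a neuropeptide, rose in grafts (0.60, against -0.075). The islet-to-graft difference was uncalled for all 3. Glucocorticoid-induced genes had negative changes for 12 of 15 at each site, with a median of -0.43 in islets and -0.27 in grafts and an interaction of 0.025. Of these, Fkbp5 fell in islets, and Ddit4, Errfi1 and Tat fell in grafts.

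No endothelial gene was called in the interaction. All 19 of these vessel markers had positive graft changes (median 0.35, beside 0.017 over all genes) and all 19 had positive interactions, with a median of 0.42, which was 0.21 with female grafts alone and 0.62 with male grafts alone. Flt1, a VEGF receptor, Emcn (endomucin) and Ramp2, a receptor activity-modifying protein, were called up in grafts (0.63, 0.73 and 0.65). Over all 19938 genes 0.833% were called up in grafts, 10365 had positive graft changes and 9873 positive interactions. The list mean was 7.18 to 7.40 in all islets, 6.27 to 7.10 in NP grafts and 6.29 to 7.61 in P12.5 grafts, so the graft groups overlapped. Acinar genes had a median interaction of 0.23 with none of 29 called, made of -0.20 in islets and 0.083 in grafts. With the acinar list as a covariate 52 genes were called in the interaction.

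The remaining lists had medians closer to 0 or no call beyond those given. The median interaction was 0.25 for 27 stromal genes, 0.033 for 24 macrophage and dendritic cell genes, 0.13 for 11 ductal genes, 0 for 25 genes of other kidney segments, 0.013 for 8 nerve and Schwann cell genes and -0.058 for 4 red blood cell genes. It was -0.12 for 8 genes of other endocrine cells, 0.042 for 25 genes kept low in beta cells, -0.0083 for 19 cell cycle regulators, -0.20 for 18 hypoxia genes, 0.13 for 23 immediate early genes, 0.092 for 59 cytosolic ribosomal proteins and 0.10 for 24 interferon-induced genes, of which Gbp8 was called. It was -0.10 for 6 Y-linked genes and -0.16 for 5 X-linked genes that escape inactivation.

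The 104 genes had the same sign of interaction against female and against male grafts, which share the islet arrays and together define the measure. The value was larger against male grafts for 75, against female grafts for 22, and equal for 7, and the median size was 0.78 and 0.63. In the same fit, 51 of the 104 were called against male grafts only and 1 against female grafts only. A further 1 was called against each origin and 51 against neither alone. Over all genes, that fit called 94 against male grafts and 2 against female grafts. When the islet arrays were fitted with the grafts of 1 origin only, 118 genes were called against male and 91 against female grafts. The imbalance of the calls thus depends on the fit. The difference between the donor sexes in the response to pregnancy was called for 0 of 35511 probe sets by limma (0%), with 2592 at an unadjusted p under 0.05.

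Probe sets without a gene symbol carried much of the positive interaction. Of 265 probe sets called in all (0.746%), 134 had no symbol (1.11% of 12101), of which 89 were positive and 45 negative. Among 300 microRNA loci 7 were positive and 1 negative, and among 1194 olfactory and vomeronasal receptor genes 3 were positive and none negative. Over all genes with a symbol, 0.13% were called positive and 0.391% negative. The mean interaction was 0.099 over symbol-free probe sets between the median and the upper quartile of intensity and -0.070 over probe sets with a symbol above the upper quartile. The part of such shifts with intensity and annotation in the calls was not tested.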

How the data were processed

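MoGene 1.0 ST arrays (1 colour) of 20 samples were used. The deposited values are log2 intensities that the authors made by robust multichip analysis in aroma.affymetrix, which adjusts the background, equalises the arrays' distributions and summarises the probes of a set. They are rounded to 1 decimal. The non-transplanted islet arrays are labelled as a reanalysis, and the annotation build is not given in the sources used here. The number of arrays limits the precision (4 per islet group, 3 per graft group), as does the rounding.

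In R 4.3.3, limma 3.58.1 (lmFit, eBayes) was fitted to 35511 probe sets as means of the 6 groups, and all contrasts come from that fit. P-values are two-sided and were adjusted by Benjamini-Hochberg over all probe sets. A call needed an adjusted p under 0.05 and a size of at least 1.5-fold. Of the probe sets 21789 carry 1 gene symbol, 1621 several and 12101 none. Where several probe sets carried the same single symbol, the brightest on average stood for the gene, which gave 19938 genes. The method was tested on simulated data.

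Named genes are the 12 highest and 12 lowest interactions among called genes, the 12 shared responses up and up to 8 down with the largest smaller-of-both change, the 12 signature genes, and members of lists called in the interaction or given as examples. The genes called in the interaction and in islets alone were named in full after their values were seen. Predicted genes, small RNAs and multi-copy families were passed over (19 in the interaction, 1 among shared responses). The members, the 28 gene lists and the lymphocyte list as a covariate were chosen with earlier results of these data known. Lists are described by counts and medians, with no set test. Alternatives covered scaling, low values, array weights, the prior, covariates, the replicate block, donor sex, the fold minimum and the removal of each array.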

Additional observations from a re-analysis of the deposited data

Results flagged for a closer look

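For each of 32 named genes the change with pregnancy differed between islets and grafts by the test of the interaction itself. The value was positive for Krt86 (0.875), Ifnl2 (0.767), Plb1 (0.758), Prr12 (0.742), Gja5 (0.683), Ppp1r14b (0.667), Acer1 (0.658), Gde1 and Atoh8 (both 0.65), Krtap21-1 (0.633), and Crocc2 and Gkap1 (both 0.608). It was negative for Car5b (-1.41), Cytip (-1.13), Anp32e (-1.12), Kmo (-1.09), Gbp8 and Bloc1s3 (both -1.06), Stat4 (-1.02), Id2 (-0.975), Tex30 (-0.917), Mfsd1 (-0.883), and Ifrd1 and Ptpn22 (both -0.875). It was also negative for Gadd45a (-0.817), Matn2 (-0.8), D17H6S56E-5 and Cmtm6 (both -0.783), Arhgap11a (-0.683), Acad8 and Il13ra1 (both -0.675), and Mcm3 (-0.633).

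In 18 of 104 pairs of a named gene and an islet group (17.3%), 1 array stood apart from the other 3, where chance gives about 1 in 20. The other 3 arrays were equal in each case, as happens readily with values rounded to 1 decimal. In NP islets the lone values were Ifnl2 8.4 (8.6 in the others), Acer1 5.1 (5.3), Gde1 9.3 (9.5), Atoh8 6.0 (6.4), Car5b 4.9 (4.6), Anp32e 7.4 (7.6), Stat4 4.4 (4.3), Lrrc55 5.6 (5.5), Ehhadh 6.7 (6.8), Acad8 7.9 (7.8) and D17H6S56E-5 6.3 (6.2). In P12.5 islets they were Prr12 7.4 (7.5), Acer1 5.3 (5.2), Gbp8 6.8 (7.1), Stat4 4.3 (4.2), Rgs2 7.9 (7.4), Pcdh15 6.5 (6.4) and Zim1 7.6 (7.8).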

How the results depend on the processing

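The 206 probe sets called in islets, the 1685 in grafts and the 64 shared genes stayed within 1.5 times of these counts under all alternatives run, with 3 exceptions. Grafts gave 2826 with the lymphocyte list mean as a covariate and 7752 with no fold minimum, and shared genes were 182 with no fold minimum. Removing 1 array in turn gave 161 to 222, 1478 to 2087 and 58 to 79. The interaction was less stable. Its 265 probe sets became 424 with array weights per site, 134 with the kidney, 158 with the acinar and 1055 with the lymphocyte list mean as a covariate, and 80 to 654 in removals. Its 104 genes became 179, 48, 52 and 592 under the same settings, 158 with no fold minimum and 21 to 306 in removals. The share of positive calls, 45.7%, was 34.7% with the lymphocyte covariate, 36.5% with male grafts alone, 67.1% without male P12.5 graft array 1, 34.5% without male NP graft array 1, and 57.5% and 56.2% without P12.5 islet array 2 and NP islet array 1. The cause was not tested. Of the 32 named calls 9 held with female grafts alone and 18 with male grafts alone, and none reversed under any alternative. With the kidney list as a covariate 16 of the 32 held, and with the acinar list 16.

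The labels do not say whether same-numbered NP and P12.5 samples were paired. Deviations of same-numbered arrays correlated at -0.242 to 0.226, which with so few arrays cannot exclude a pairing. A fit that blocked on the replicate number gave the interaction 15 probe sets (80% positive) and 1 gene, and 31 of the 32 named calls were lost. Raising values below the lower quartile (4.8) to it ended 6 of the 32 named calls (Krt86, Acer1, Krtap21-1, Car5b, Cytip and D17H6S56E-5), while Kmo, Stat4 and Ptpn22, whose islet signals lie there, kept theirs.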
